A study of Danio rerio with 6 samples.

Results

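The genes described here are the ubiquitin-conjugating enzymes, named ube2, and the ubiquitin-specific proteases, named usp, in blood cells sorted from the kidney of zebrafish larvae. They were chosen by symbol alone, as every row with an Ensembl gene ID and a lower-case symbol that starts with ube2 and a letter or with usp and a digit. That gave 85 of the 27314 rows of the deposited table, 39 named ube2 and 46 named usp, with ube2c in 2 rows. Another 5 rows whose symbols are written with capitals (UBE2M, USP34 as 2 rows, a USP53 copy and Ube2o) fell outside the rule and are not counted.

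Each group had 3 libraries of 50 sorted cells, made with Smart-seq2, which copies whole transcripts and adds no molecular identifiers. One group came from larvae treated with MTZ and the other from larvae treated with DMSO, the usual solvent control. All larvae were labelled WT, carried Tg(coro1a:DenNTR) and were sampled at 9 dpf, 3.5 dpt, so the DMSO controls carried the transgene too. In this line the coro1a promoter, active in leukocytes, drives DenNTR, and the sorted cells carried Dendra2, a fluorescent protein that violet light turns red. The names MTZ, NTR, dpf and dpt are given as the labels write them. Labelled cells in the kidney were turned red with a 405-nm laser for 30 s, and red cells were sorted from a pool of about 80 larvae. Whether each library had its own pool of larvae is not in the labels. The p-values therefore measure only how far these 6 libraries differ, and that spread may be technical. The sort held a mixture of leukocytes, and fewer cells of a type and less RNA per cell cannot be told apart.

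Library totals lay between 16928977 and 20674280 counts in MTZ and between 14058382 and 16400587 counts in DMSO. A count of 3, used below as the floor of detection, corresponded to between 0.149 and 0.233 CPM. CPM are counts per 1000000 of a library's total over the genes kept for testing, after TMM scaling. For coro1a, whose promoter drives the transgene, levels were 1287, 2012 and 1609.8 CPM in MTZ, against 2573, 2458 and 1508 CPM in DMSO, so every library held the leukocyte signal of the sort. Of 11 markers of kidney tubules and podocytes 8 were at 0 in all libraries, and their summed level was at most 0.270 CPM everywhere but in DMSO 1, at 42.8 CPM. DMSO 1 also held skeletal muscle transcripts summing to 9661 CPM (at most 26.2 CPM elsewhere), and MTZ 1 held 16166 CPM of neutrophil markers against at most 5632 CPM elsewhere. MTZ 3 held 794 CPM of pancreas markers, against at most 32.4 CPM elsewhere. The summed thrombocyte markers were between 259.5 and 336 CPM in MTZ and between 50.1 and 210 CPM in DMSO, without overlap. Single genes of that list differed: itga2b and f13a1b were higher in every MTZ library, while gp9 was lower in every MTZ library. Both fn1b and thbs1b were highest in a DMSO library. Liver markers summed to between 254 and 697 CPM in MTZ and between 18 and 82.6 CPM in DMSO, also without overlap. Of these 11 markers 8 were at 0 everywhere, and the MTZ sums were rbp4 alone. The other detected liver markers, fabp10a and tfa, had counts only in DMSO. The part of all these transcripts in the values below was not tested. Below, the 3 values of a group are always those of libraries 1, 2 and 3, in that order.

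Ubiquitin is a small protein that cells attach to other proteins. An activating enzyme (E1) loads it, a conjugating enzyme (E2) carries it, and a ligase (E3) directs it onto a target, which is then degraded by the proteasome, moved or switched in activity. Deubiquitinases take ubiquitin off again, and the USP family is the largest class of them in vertebrates. In blood cells this system tunes NF-kB and interferon signalling, DNA repair in dividing progenitors and the turnover of surface receptors. The roles named below are those of the yeast or mammalian proteins. A name does not fix a role: ube2v1 and ube2v2 code for variants without a catalytic cysteine, usp39 for a splicing factor of the USP fold without protease activity, and usp6nl for a Rab GTPase-activating protein.

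Most conjugating enzymes were detected in every library. Of 39 rows 37 had counts, 31 had counts in all 6 libraries and 36 passed the expression filter. In MTZ 17 of these were higher and 19 lower, a share of 47.2% higher against 50.9% of all 10283 genes tested. Their median log2 fold change was -0.04 (log2 of MTZ over DMSO, positive where MTZ is higher, and given below ± its standard error), against 0.02 over all genes tested. Summed, the ube2 genes took 4094, 4468 and 4738 CPM in MTZ, against 4536, 4489.5 and 4462 CPM in DMSO. The MTZ sums lay on both sides of the DMSO sums.

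**Figure D1:**
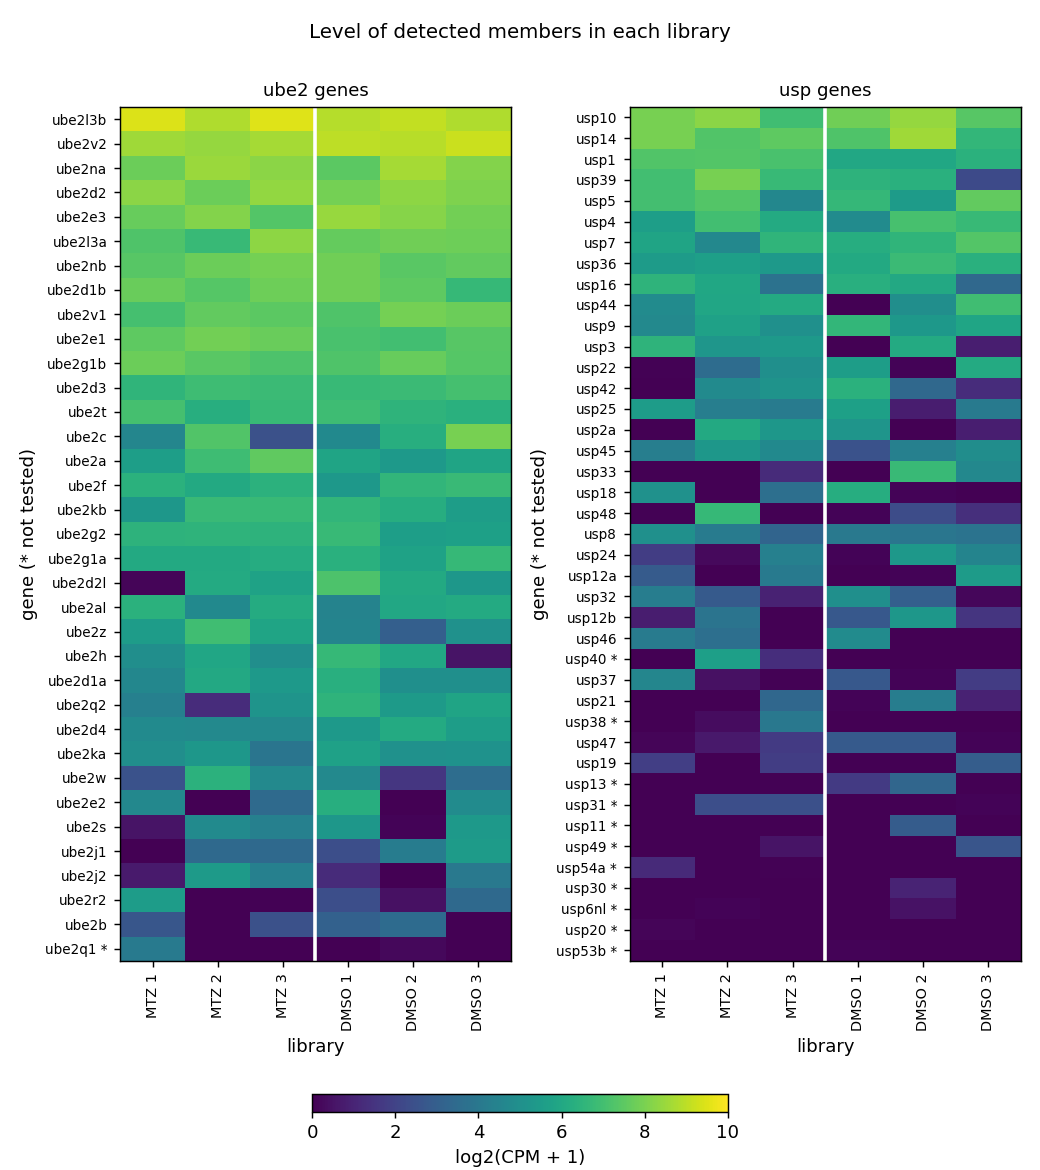
Level of members with counts in the 3 MTZ libraries and the 3 DMSO libraries, as log2(CPM + 1), with ube2 genes in one panel and usp genes in the other. Rows are sorted by mean CPM, which also depends on transcript length, and asterisks mark members that did not pass the expression filter. Of the usp genes, 18 had counts in all 6 libraries, and the others are dark in at least 1.

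The UBE2D and UBE2E enzymes start chains with many ligases, and all 9 such genes were tested, 3 higher and 6 lower in MTZ (median log2 fold change -0.14). The gene ube2d2 had 307, 217 and 335 CPM in MTZ, against 242, 312 and 270.2 CPM in DMSO, and ube2d3 had 91.1, 118 and 111 CPM in MTZ, against 106, 113 and 133 CPM in DMSO. In both the groups overlapped. The relative ube2e1 (ENSDARG00000116649) had 185, 236 and 210.4 CPM in MTZ, against 138, 125 and 168 CPM in DMSO. All its MTZ values were above all its DMSO values, at a log2 fold change of 0.55 ± 0.32. The difference did not pass (edgeR unadjusted p = 0.122, adjusted p = 0.9997). Its paralog ube2e3 had 206, 278 and 159.5 CPM in MTZ, against 354, 289.7 and 233 CPM in DMSO, where 2 of the MTZ libraries lay below every DMSO library and MTZ 2 did not (log2 fold change -0.45 ± 0.32).

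Within the same class, ube2d4 (ENSDARG00000015057) had 26.4, 24.9 and 25.2 CPM in MTZ, against 40.7, 68 and 47 CPM in DMSO. The MTZ values lay between 24.9 and 26.4 CPM, below all DMSO values, and the difference did not pass (log2 fold change -1.02 ± 0.89, edgeR adjusted p = 0.9997). The duplicated genes ube2d1a and ube2d1b overlapped between the groups. For ube2d1a levels were 23.5, 64 and 42 CPM in MTZ, against 79.1, 31 and 30.4 CPM in DMSO. For ube2d1b they were 206, 165 and 222 CPM in MTZ, against 227, 184 and 104 CPM in DMSO. A further copy, ube2d2l, had 0.108, 67.4 and 52.7 CPM in MTZ, against 147, 66.9 and 38.3 CPM in DMSO, so it was near 0 in MTZ 1 alone. The gene ube2e2 was at 0 in MTZ 2 and in DMSO 2, and reached 75.2 CPM in DMSO 1.

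Chains that serve in NF-kB signalling and DNA damage tolerance are built by the UBE2N enzyme together with its inactive partners UBE2V1 and UBE2V2. Zebrafish have the copies ube2na and ube2nb, and both had counts in all libraries. The gene ube2na had 217, 364 and 305 CPM in MTZ, against 175, 400.3 and 280 CPM in DMSO, and ube2nb had 167, 215 and 237 CPM in MTZ, against 228, 171 and 194 CPM in DMSO. Neither separated the groups, with log2 fold changes of 0.05 ± 0.37 and 0.06 ± 0.31. The partner ube2v2 (ENSDARG00000028198) had 383, 339 and 399.7 CPM in MTZ, against 509.6, 487 and 579 CPM in DMSO. Every MTZ library was below every DMSO library, with a log2 fold change of -0.49 ± 0.23, the smallest p among the ube2 genes (edgeR unadjusted p = 0.0602, adjusted p = 0.9997). With a library left out it ran from -0.53 to -0.41. The partner ube2v1 had 131, 191 and 175 CPM in MTZ, against 150.2, 239 and 215 CPM in DMSO, and its groups overlapped.

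The UBE2L3 enzyme works with ligases that take over ubiquitin themselves, among them the complex that makes linear chains in NF-kB signalling. Its copy ube2l3b (ENSDARG00000027141) had 712, 447 and 729 CPM in MTZ, against 475, 539.5 and 447 CPM in DMSO. MTZ 1 and MTZ 3 were above all DMSO libraries, while MTZ 2 and DMSO 3 were both at 447 CPM (log2 fold change 0.37 ± 0.26). The copy ube2l3a had 152, 107 and 316 CPM in MTZ, against 199, 227 and 222 CPM in DMSO. Its DMSO libraries lay close together, with MTZ libraries on both sides.

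Genes for the conjugating enzymes of cell division and DNA repair varied more. UBE2C and UBE2S build chains with the anaphase-promoting complex, which ends mitosis. The expressed ube2c row (ENSDARG00000114670) had 23.2, 154 and 4.52 CPM in MTZ, against 25.7, 75.8 and 248 CPM in DMSO. The other ube2c row was at 0 in all libraries. MTZ 2 and DMSO 3 were far above the other libraries of their groups. The log2 fold change was -0.94, but -3.07 without MTZ 2 and 0.25 without DMSO 3. The gene ube2s had 0.432, 26.3 and 19.7 CPM in MTZ, against 38.3, 0.0585 and 41.3 CPM in DMSO, with at most 8 counts in MTZ 1 and DMSO 2. By contrast ube2t, whose enzyme serves the Fanconi anaemia repair pathway, had 133, 76.3 and 107 CPM in MTZ, against 117, 89.2 and 81.4 CPM in DMSO, with overlapping groups (log2 fold change 0.14 ± 0.45).

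UBE2A and UBE2B, the vertebrate forms of yeast RAD6, mark PCNA at stalled replication forks. The gene ube2a (ENSDARG00000098466) had 47.4, 117 and 186 CPM in MTZ, against 56.2, 40.5 and 56.2 CPM in DMSO. MTZ 2 and MTZ 3 were above all DMSO libraries and MTZ 1 was not (log2 fold change 1.20 ± 0.62, edgeR unadjusted p = 0.0872, adjusted p = 0.9997). Its close copy ube2al had 83, 26.1 and 69.9 CPM in MTZ, against 20.9, 63.3 and 68.1 CPM in DMSO, and ube2b had 5.45, 0 and 4.57 CPM in MTZ, against 7.54, 10.3 and 0 CPM in DMSO. UBE2W attaches ubiquitin to the start of proteins. Its gene ube2w had 4.75, 83.9 and 25.5 CPM in MTZ, against 24.9, 1.99 and 10.9 CPM in DMSO, highest in MTZ 2.

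Some conjugating enzymes serve the endoplasmic reticulum, where misfolded proteins are sent for degradation. Of their genes and the related ube2g1 copies, 3 were higher and 2 lower in MTZ. The gene ube2g2 had 87.3, 89.5 and 87.7 CPM in MTZ, against 105, 47.2 and 50.7 CPM in DMSO. Its MTZ values lay between 87.3 and 89.5 CPM, inside the DMSO range. The copies ube2g1a and ube2g1b overlapped between the groups. For ube2g1a levels were 66.9, 66.7 and 72.4 CPM in MTZ, against 81.1, 53.7 and 102 CPM in DMSO. For ube2g1b they were 216, 174 and 148 CPM in MTZ, against 149, 201 and 162 CPM in DMSO. The membrane-anchored ube2j1 and ube2j2 were scarce, at no more than 43.3 CPM in any library and at 0 in MTZ 1 for ube2j1 and in DMSO 2 for ube2j2.

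Other enzymes of this family carry relatives of ubiquitin or are loaded by another activating enzyme. For ube2f, whose enzyme carries NEDD8 to cullin ligases, values were 82.3, 66.1 and 85.9 CPM in MTZ, against 39.4, 95.7 and 109 CPM in DMSO. The gene ube2z (ENSDARG00000029215), for an enzyme loaded by the activating enzyme UBA6 in human cells, had 44.6, 121 and 56.1 CPM in MTZ, against 21.7, 7.25 and 32.7 CPM in DMSO. All MTZ values were above all DMSO values, and the difference did not pass (log2 fold change 1.85 ± 0.94, edgeR unadjusted p = 0.0833, adjusted p = 0.9997). With a library left out it ran from 1.30 to 2.35.

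Of the remaining ube2 genes, ube2q2 (ENSDARG00000013990) had 19.7, 1.42 and 34.9 CPM in MTZ, against 89.9, 42.7 and 55.8 CPM in DMSO. Its MTZ libraries were all lower, MTZ 2 most of all, and the difference did not pass (log2 fold change -1.75 ± 1.21, edgeR adjusted p = 0.9997). The gene ube2h had 29.5, 58.7 and 29.9 CPM in MTZ, against 102, 62.2 and 0.460 CPM in DMSO, with 7 counts in DMSO 3. The copies ube2ka and ube2kb, for an enzyme that builds degradation chains, overlapped between the groups. For ube2ka levels were 29.5, 38.6 and 13.7 CPM in MTZ, against 51.5, 32 and 33.2 CPM in DMSO. For ube2kb they were 38.1, 109.8 and 107 CPM in MTZ, against 95.9, 73.4 and 46.4 CPM in DMSO. The cullin ligase partner ube2r2 was seen mainly in MTZ 1, at 44.9 CPM. Not tested were ube2q1, with 300 counts in MTZ 1 and 3 in DMSO 2, and ube2ql1, at 0 throughout.

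For 5 of the pairs of gene copies, not for every pair measured, the ratio of counts, which cancels library size, is given here. For ube2na over ube2nb the ratio was 1.30, 1.69 and 1.29 in MTZ and 0.770, 2.34 and 1.44 in DMSO. It differed 3.05-fold between the highest and the lowest library. For ube2l3a over ube2l3b the ratio was 0.214, 0.239 and 0.433 in MTZ and 0.420, 0.420 and 0.497 in DMSO, where MTZ 1 and MTZ 2 were below all DMSO libraries and MTZ 3 was inside the DMSO range. Across libraries the ratio differed 2.36-fold for ube2g1a over ube2g1b, 3.40-fold for ube2d1a over ube2d1b and 6.08-fold for ube2ka over ube2kb. How the counting treated reads that match both copies is not given in the sources used here, so each copy's own level is uncertain.

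**Figure D2:**
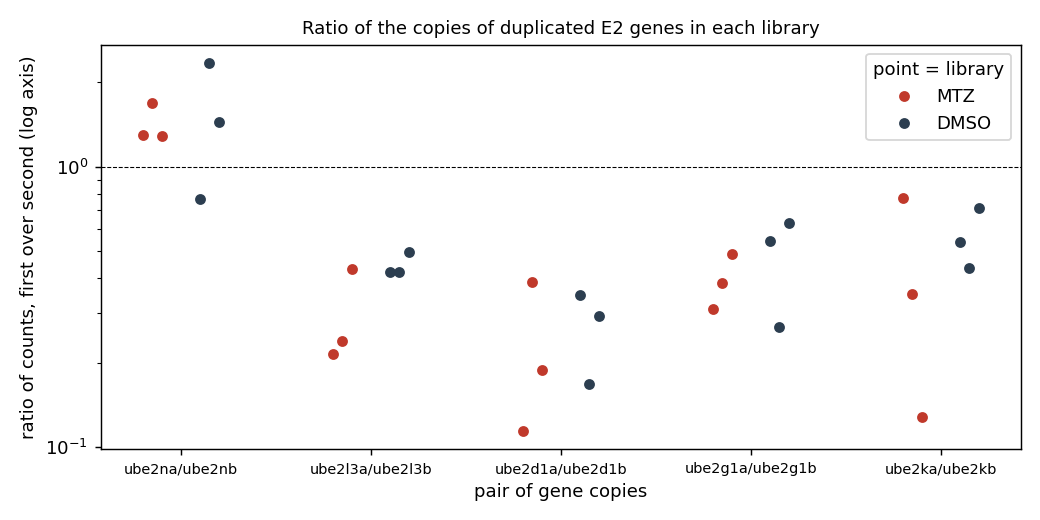
Ratio of the counts of 2 copies of a duplicated ube2 gene in each MTZ and DMSO library, on a log axis; each point is a library and the dashed line marks equal counts. The MTZ and DMSO points overlap in the 5 pairs shown, and among these the ube2ka/ube2kb ratio has the widest range, from 0.1275 in MTZ 3 to 0.7745 in MTZ 1.

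Fewer of the deubiquitinase genes were detected in every library. Of 46 usp rows 41 had counts, 18 had counts in all 6 libraries and 30 passed the filter. Those 18 were 60% of the tested usp genes, against 86.1% of the tested ube2 genes and 64.3% of all genes tested, so the usp share was close to that of all genes. Among the tested genes 12 were higher and 18 lower in MTZ, a share of 40% higher, and the median log2 fold change was -0.14. Their sum was 1478, 1802 and 1166.5 CPM in MTZ, against 1361, 1725 and 1315 CPM in DMSO, with overlapping groups.

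USP14 trims chains on the proteasome and USP5 takes apart chains that are attached to nothing. The gene usp14 (ENSDARG00000025889) had 247, 155 and 184 CPM in MTZ, against 151, 379.8 and 98.4 CPM in DMSO. DMSO libraries were both the highest and the lowest, and the log2 fold change of -0.10 ± 0.51 turned to 0.65 without DMSO 2. The gene usp5 had 127, 161 and 23.7 CPM in MTZ, against 99.9, 43.8 and 191 CPM in DMSO, and it was lowest in MTZ 3. Its relative usp13 was not tested, with 1 count in MTZ 3, 29 in DMSO 1 and 153 in DMSO 2.

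Among the genes for histone and chromatin deubiquitinases, 3 were higher and 5 lower in MTZ of 8 tested. The nucleolar usp36 (ENSDARG00000032327) had 43.3, 49.6 and 41.5 CPM in MTZ, against 65.9, 111 and 80.1 CPM in DMSO. All MTZ values were below all DMSO values, and the difference did not pass (log2 fold change -0.93 ± 0.60, edgeR unadjusted p = 0.157, adjusted p = 0.9997). The gene usp7, whose enzyme stabilises the p53 ligase MDM2 among other targets, had 56, 24.4 and 91.1 CPM in MTZ, against 74.6, 92.8 and 161 CPM in DMSO. MTZ 1 and MTZ 2 lay below all DMSO libraries and MTZ 3 did not. Without a library its log2 fold change of -0.94 ± 0.64 ran from -1.43 to -0.54.

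Others of this class differed widely between libraries of the same group. The histone H2A protease gene usp3 had 89.8, 37.1 and 42 CPM in MTZ, against 0, 67.5 and 0.789 CPM in DMSO, with no count in DMSO 1 and 12 counts in DMSO 3. The gene usp22, for a subunit of the SAGA coactivator, had 0.0540, 10.5 and 30.5 CPM in MTZ, against 46.2, 0.0585 and 68 CPM in DMSO, with a single count in MTZ 1 and in DMSO 2. For usp44, a regulator of the mitotic checkpoint, values were 27.3, 59.5 and 68 CPM in MTZ, against 0, 29.5 and 120 CPM in DMSO. The gene usp16 had 88.6, 61.6 and 12.7 CPM in MTZ, against 77.2, 64 and 9.40 CPM in DMSO, with MTZ 3 and DMSO 3 lowest. The genes usp21 and usp42 were likewise at 0 in at least a library of MTZ and at no more than 1.38 CPM in at least a library of DMSO.

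The gene with the smallest p of all members was usp1 (ENSDARG00000056414), whose enzyme, activated by WDR48, takes ubiquitin off the Fanconi protein FANCD2 and off PCNA. It had 155, 159 and 138 CPM in MTZ, against 63.4, 60.5 and 81.6 CPM in DMSO. The MTZ libraries lay close together and above all DMSO libraries. Its group means were 151 ± 11.1 CPM in MTZ and 68.5 ± 11.5 CPM in DMSO (SD, n = 3 each), a log2 fold change of 1.14 ± 0.40. It did not pass over all genes (edgeR unadjusted p = 0.0206, adjusted p = 0.9997), and its adjusted p under the alternatives ran from 0.335 with DESeq2 to 1. Leaving out single libraries gave values from 1.06 to 1.28, with 1.13 without MTZ 1 and 1.096 without DMSO 1. Of these 6 fits the unadjusted p stayed under 0.05 only without DMSO 3. It was also above 0.05 without a filter on low counts and with the replicate number as a block. Neutrophil markers summed to 16166 CPM in MTZ 1, 5632 CPM in DMSO 1 and 5121 CPM in DMSO 3, and to at most 1532 CPM in the others. The part of neutrophil and muscle transcripts in the usp1 values was not tested.

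Several genes of the same route were read beside usp1, from lists of the ubiquitin pathway and of S phase and mitosis. The target pcna had 1797, 1554 and 2034 CPM in MTZ, against 1543, 1909 and 1170 CPM in DMSO, with overlapping groups. The target fancd2 was not tested, with no counts in DMSO and 712, 1 and 98 counts in MTZ. The activator wdr48a had at most 27 counts in a library and wdr48b at most 1. The replication helicase genes mcm3 and mcm4 averaged 539 ± 175 CPM in MTZ and 315 ± 27.6 CPM in DMSO for mcm3, and 474 ± 66.7 CPM in MTZ and 301 ± 40.4 CPM in DMSO for mcm4 (SD, n = 3 each). Neither passed (edgeR unadjusted p = 0.0269 and 0.0295, adjusted p = 0.9997), and both separated the groups, as mcm6 did. Other helicase genes overlapped between the groups. For mcm2 levels were 819, 403 and 184 CPM in MTZ, against 297, 264 and 149 CPM in DMSO. For mcm5 they were 495, 385 and 332 CPM in MTZ, against 159, 394 and 197 CPM in DMSO. For mcm7 they were 46.5, 99.6 and 8.84 CPM in MTZ, against 61.1, 61.6 and 108 CPM in DMSO. Of the 25 tested genes of that list 17 were higher and 8 lower, or 68% higher against 50.9% of all genes tested. Of these 25 genes 3 had an edgeR unadjusted p under 0.05, the helicase genes mcm3, mcm4 and mcm6, where 3.18% of all genes tested did. The list was chosen with earlier results of these data known, so its shares are descriptions and no test. Its lower gene of smallest p was tyms, the thymidylate synthase gene, with 76.5, 69.5 and 107 CPM in MTZ, against 223, 173 and 83.7 CPM in DMSO and overlapping groups (log2 fold change -0.92 ± 0.48). Summed, the 26 genes of the S phase and mitosis list had 8111, 7642 and 6069.6 CPM in MTZ, against 5567, 7091 and 5329.9 CPM in DMSO, with MTZ 3 below DMSO 2. The part of these S phase genes in the values of usp1 was not tested.

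The other repair and cell cycle genes of the family were seen unevenly. The gene usp48 had 0.0540, 102 and 0 CPM in MTZ, against 0.0778, 3.98 and 1.58 CPM in DMSO, so its log2 fold change of 4.18 ± 3.12 rested on MTZ 2 and turned to -5.79 without it. The gene usp37, for a regulator of cyclin A, had 22.8, 0.371 and 0.0497 CPM in MTZ, against 5.75, 0.0585 and 2.43 CPM in DMSO. Its log2 fold change of 1.49 turned to -3.65 without MTZ 1. The gene usp45 had 18.6, 38.3 and 25.8 CPM in MTZ, against 4.74, 19.5 and 29.1 CPM in DMSO, and usp47 had 0.108, 0.619 and 2.28 CPM in MTZ, against 6.14, 6.20 and 0.0658 CPM in DMSO, both with overlapping groups. Counts of usp11 came from DMSO 2 alone, and usp28 had none in any library.

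Deubiquitinases of endosomes, receptors and inflammatory signalling had 10 tested genes, 3 higher and 7 lower in MTZ. The gene usp10, whose enzyme acts on p53 and binds stress granule proteins, had 246, 309.6 and 119.7 CPM in MTZ, against 227, 338 and 169 CPM in DMSO. The gene usp8, for an endosomal sorting enzyme, had 31.5, 17 and 8.44 CPM in MTZ, against 15.7, 14.3 and 12.9 CPM in DMSO, and usp4 had 47.7, 124 and 68.9 CPM in MTZ, against 27.1, 137 and 107 CPM in DMSO. The groups overlapped in each. The gene usp9, the fish form of USP9X, had 24.8, 51.2 and 31.5 CPM in MTZ, against 96.3, 39.3 and 57.1 CPM in DMSO, where 2 MTZ libraries lay below all DMSO libraries and MTZ 2 did not.

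Others in this class appeared in some libraries and not in others of the same group. The gene usp18, whose enzyme removes the interferon-induced modifier ISG15, had 595, 0 and 234 counts in MTZ, against 955, 1 and 0 counts in DMSO. The modifier gene isg15 itself had 0, 0 and 25.8 CPM in MTZ, against 0, 9.82 and 25.4 CPM in DMSO, and the libraries with usp18 were not those with isg15, apart from MTZ 3 and a single usp18 count in DMSO 2. The gene usp33 (ENSDARG00000016163) had 0, 0 and 27 counts in MTZ, against 0, 1837 and 369 counts in DMSO. Its log2 fold change of -6.59 ± 3.29 rested on DMSO 2 and DMSO 3, with DMSO 1 at 0 like MTZ 1 and MTZ 2, and it did not pass (edgeR unadjusted p = 0.0785, adjusted p = 0.9997). The copy usp2a had 0, 1081 and 776 counts in MTZ, against 470, 0 and 12 counts in DMSO, and its paralog usp2b had none.

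The genes usp12a, usp12b and usp46 code for proteases that need WD-repeat partners, as usp1 does. The copy usp12a had 116, 0 and 317 counts in MTZ, against 0, 1 and 664 counts in DMSO, and usp12b had 14, 217 and 0 counts in MTZ, against 75, 645 and 29 counts in DMSO. In MTZ 1, MTZ 3 and DMSO 3 usp12a was the copy with more counts, and in MTZ 2, DMSO 1 and DMSO 2 it was usp12b. The gene usp46 had 313, 187 and 0 counts in MTZ, against 352, 0 and 0 counts in DMSO. The mitochondrial usp30 had 17 counts, all in DMSO 2. The gene usp40 had 0, 796 and 30 counts in MTZ, against 0, 0 and 0 counts in DMSO, and usp38 had 0, 4 and 306 counts in MTZ, against 0, 0 and 0 counts in DMSO. Neither passed the filter, and in each the MTZ counts came almost entirely from a single library. With 826 counts in MTZ and none in DMSO, the pooled counts of usp40 were at least 226.8-fold higher over a floor of 3 counts in the DMSO group. That is a bound for counting error only. It rests on MTZ 2, which held 796 of these counts, while MTZ 1 was at 0 like every DMSO library.

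Of the remaining usp genes, usp25 had 45.6, 18.3 and 16.9 CPM in MTZ, against 50.8, 0.760 and 15.7 CPM in DMSO, with 13 counts in DMSO 2, and usp32 had 18, 6.19 and 0.943 CPM in MTZ, against 30.9, 7.07 and 0.132 CPM in DMSO. The gene usp24 had 46, 3 and 397 counts in MTZ, against 1, 681 and 331 counts in DMSO, and usp19, whose enzyme is anchored in the endoplasmic reticulum, had 48, 0 and 50 counts in MTZ, against 0, 0 and 101 counts in DMSO. In all of these the groups overlapped. Not tested were usp31, with 0, 70 and 90 counts in MTZ, against 0, 0 and 1 counts in DMSO, usp49, with 9 counts in MTZ 3 and 80 in DMSO 3, usp54a, with 24 counts in MTZ 1 and 1 in MTZ 3, and usp20, with 2 counts in MTZ 1.

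The splicing factor gene usp39 (ENSDARG00000041908) had 126, 244 and 107 CPM in MTZ, against 88.3, 81.4 and 3.75 CPM in DMSO. All MTZ values were above all DMSO values, with DMSO 3 far below the other DMSO libraries. Its log2 fold change was 1.46 ± 0.95 (edgeR unadjusted p = 0.161, adjusted p = 0.9997), and without DMSO 3 it was 0.91. The Rab regulator gene usp6nl had 1 count in MTZ 2 and 7 in DMSO 2, and usp53b had 1 in DMSO 1. The genes usp43a, usp43b and usp54b had none, so that 7 of the 85 rows were at 0 throughout, 2 ube2 and 5 usp.

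MTZ against DMSO is the single comparison the labels give, and 0 of the 66 tested members passed it (edgeR quasi-likelihood test, adjusted p under 0.05 over 10283 genes). Over all genes tested the test called 0 as well, a share of 0%. DESeq2 called 0 of 62 members where it called 1.33% of the genes to which it gave an adjusted p. Run on every gene with a count, without the expression filter, edgeR called 0 of 78 members, against 0.29% of those genes. At an unadjusted p under 0.05 there was 1 member, usp1, a share of 1.52% against 3.18% of all genes tested. Higher in MTZ at that threshold were 1.83% of all genes and lower were 1.35%, and DESeq2 called 0.747% higher and 0.583% lower.

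In 8 of the 66 tested members, 12.1%, the MTZ libraries and the DMSO libraries did not overlap, against 10.8% of all genes tested. Above DMSO in every MTZ library were ube2z, ube2e1, usp1 and usp39, or 6.06% of members against 5.58% of all genes tested. Below it in every MTZ library were ube2v2, ube2d4, ube2q2 and usp36, again 6.06% against 5.17% of all genes tested. The share of members is close to that of all genes, so the separation is no result about these families.

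**Figure D3:**
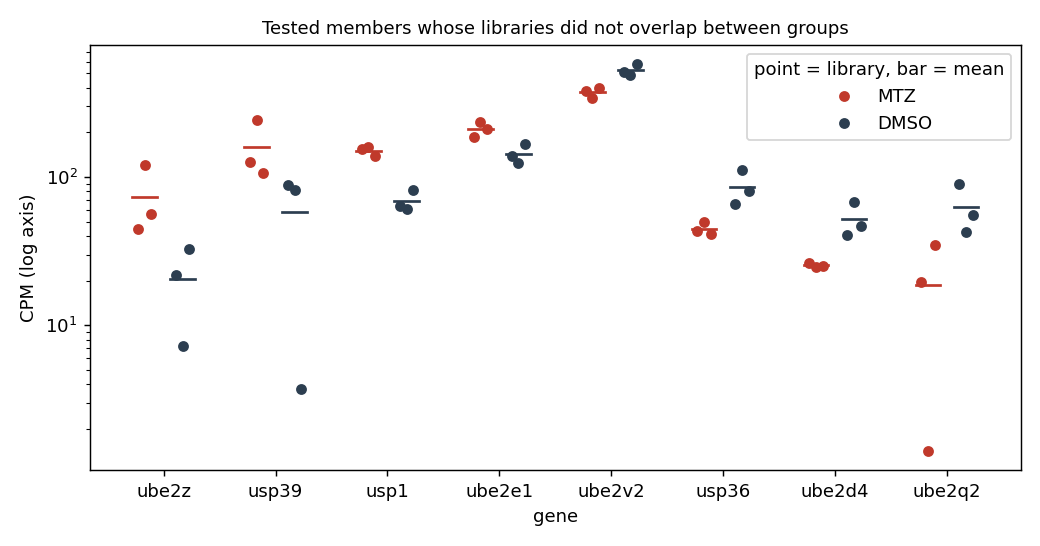
CPM of the 8 tested members whose MTZ and DMSO libraries did not overlap, on a log axis; each point is a library and each bar the mean of 3 libraries. The usp1 values are 138 to 159 CPM in MTZ and 60.5 to 81.6 CPM in DMSO, and the spread within a group is wide for usp39 and ube2q2.

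**Figure D4:**
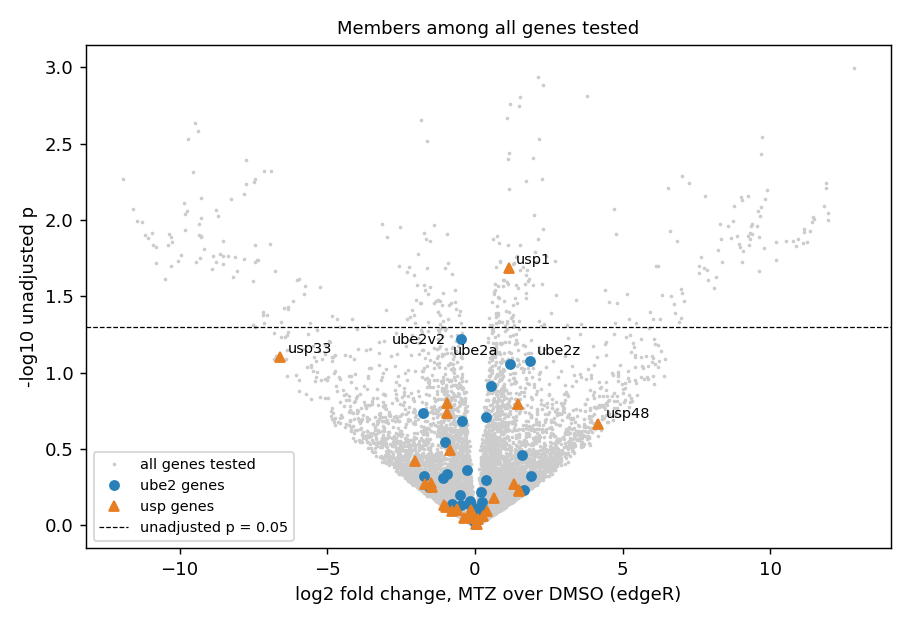
Log2 fold change of MTZ over DMSO against −log10 of the unadjusted edgeR p for all 10283 genes tested, with the 36 tested ube2 genes as circles and the 30 tested usp genes as triangles. Above the dashed line at an unadjusted p of 0.05 usp1 is the single member.

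The coefficient of variation over the 6 libraries had a median of 0.362 over the 36 tested ube2 genes and of 0.983 over the 30 tested usp genes, against 0.821 over all genes tested. It was under 0.5 in 23 ube2 and 5 usp genes, or 63.9% and 16.7%, against 25% of all genes tested. In 7 ube2 and 17 usp genes, or 19.4% and 56.7%, a library had 3 or fewer counts while another had 100 or more, against 45.1% of all genes tested. Among the 17 usp genes 14 had such a low library in MTZ and 15 in DMSO.

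Part of this went with counting depth. The median of the mean CPM was 79.1 over the tested ube2 genes, 24.2 over the tested usp genes and 27.5 over all genes tested, and longer transcripts collect more reads, so these are depths rather than levels. Among genes with a mean of 100 CPM or more, the median coefficient of variation was 0.219 over 15 ube2 genes, 0.492 over 5 usp genes and 0.328 over all 1905. From 10 CPM to under 100 CPM it was 0.746 over 19 ube2 genes, 0.904 over 19 usp genes and 0.821 over all 6115. Under 10 CPM it was 1.33 over 2 ube2 genes, 1.40 over 6 usp genes and 1.25 over all 2263. These are descriptions of 6 libraries, with no test of the difference between the families.

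**Figure D5:**
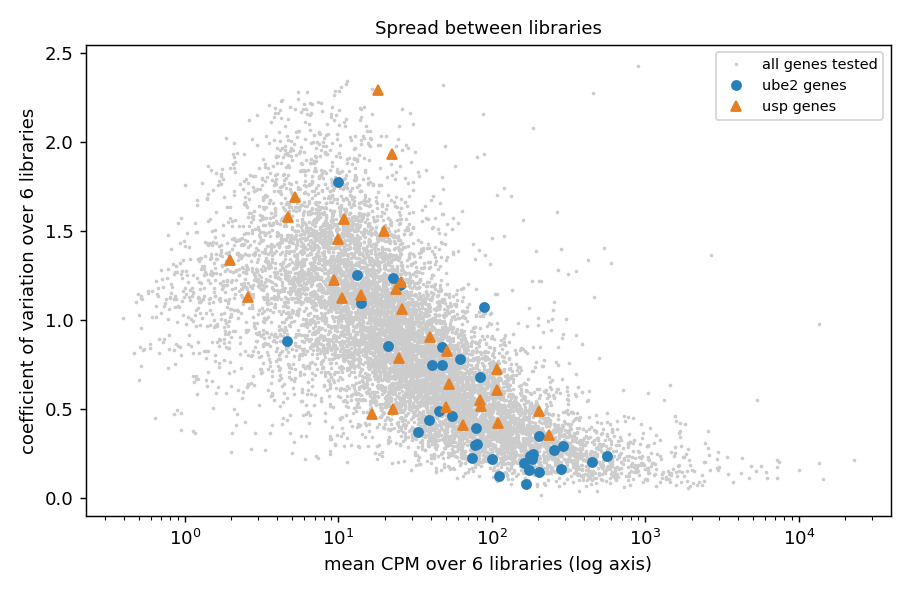
Coefficient of variation over the 6 libraries against the mean CPM (log axis) of each of the 10283 genes tested, with the 36 ube2 genes as circles and the 30 usp genes as triangles. Most ube2 genes lie at higher CPM and lower variation (median 0.362) than most usp genes (median 0.983), and the variation of all genes tends to be lower at higher CPM.

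The rest of the ubiquitin pathway was read from lists of 242 symbols, 222 of them found in the table. The precursors of ubiquitin and its relatives had 8 of 13 tested genes higher in MTZ and a median coefficient of variation, lower than the 0.821 of all genes tested, of 0.205. The polyubiquitin gene ubc had 744, 887 and 832 CPM in MTZ, against 809.7, 733 and 776 CPM in DMSO, and ubb had 298, 378 and 361 CPM in MTZ, against 361, 143 and 276 CPM in DMSO, lowest in DMSO 2. The precursor ufm1 had the smallest p of the higher genes (log2 fold change 0.73 ± 0.44). Of the activating enzymes 4 were higher and 4 lower. The ubiquitin activator uba1 had 389.9, 256 and 142 CPM in MTZ, against 341, 289 and 363 CPM in DMSO, lowest in MTZ 3, and the SUMO activator subunit uba2 had 208, 141 and 188 CPM in MTZ, against 128, 144 and 48.2 CPM in DMSO, lowest in DMSO 3.

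Deubiquitinases of other classes had 28 tested rows, 12 higher and 16 lower (median log2 fold change -0.08). The gene stambpb (ENSDARG00000086906), for an endosomal JAMM-class protease, had 13.8, 3.77 and 25 CPM in MTZ, against 0, 0 and 0 CPM in DMSO. With no counts in DMSO and 819 in MTZ it was at least 224.9-fold higher over a floor of 3 counts in the DMSO group, a bound for counting error only. It passed the expression filter through its MTZ libraries alone, so no test of it is given. Its paralog stambpa had 35.6, 43.8 and 45.3 CPM in MTZ, against 38, 15.2 and 54.9 CPM in DMSO, with overlapping groups. Counts in a single group went the other way too. The genes mpnd, cyldl and otud1 had none in MTZ and 714, 160 and 122 counts in DMSO. Over a floor of 3 counts in the MTZ group they were at least 288.9-fold, 64.74-fold and 49.36-fold lower, again for counting error only. The NF-kB regulator cylda had 10.5, 0.309 and 0 CPM in MTZ, against 54.5, 95.7 and 0.0658 CPM in DMSO (log2 fold change -3.80 ± 2.66). The proteasome lid protease psmd14 had 268, 197 and 252 CPM in MTZ, against 312, 286 and 159 CPM in DMSO, again overlapping.

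Among conjugating enzymes with other names, 2 of 9 tested genes were higher in MTZ, with tsg101a (0.97 ± 1.22) named as the higher gene of smallest p and atg3 (-0.52 ± 0.41) as the lower one, both as log2 fold changes. SUMO and NEDD8 proteases had 3 of 7 tested genes higher, with desi1b (1.12 ± 0.93) and senp7b (-0.94 ± 1.09) chosen in the same way. Partners and targets of USP enzymes had 4 of 10 higher, with adrm1, a ubiquitin receptor of the proteasome, as the lower gene of smallest p, at 29.5, 42.4 and 29.2 CPM in MTZ, against 110.2, 42.1 and 62.7 CPM in DMSO.

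For each class of ligases the higher and the lower gene of smallest p are named. In the anaphase-promoting complex 7 genes were higher and 7 lower, with anapc1 (1.73 ± 1.26) and anapc15 (-1.01 ± 1.12). In cullin ligases 11 were higher and 14 lower, with cul3a (-0.84 ± 0.65) as the lower one. The higher one, dcun1d1, which helps NEDD8 onto cullins, had 127, 85.8 and 166 CPM in MTZ, against 76.9, 17.3 and 39.3 CPM in DMSO. In RING and RBR ligases 19 were higher and 10 lower, with traf3 (6.42 ± 3.25) and trim33 (-4.40 ± 2.18). For traf3 there were 5, 737 and 312 counts in MTZ, against 9, 0 and 0 counts in DMSO, with MTZ 1 below DMSO 1. For trim33 there were 0, 2 and 231 counts in MTZ, against 345, 3010 and 642 counts in DMSO, highest in DMSO 2. In HECT ligases 4 were higher and 11 lower, with wwp2 (1.38 ± 0.62) and nedd4l (-3.03 ± 1.85). Values in brackets are log2 fold changes with their standard errors, and 0 of these ligase genes passed (edgeR adjusted p = 0.9997 for each), nor did DESeq2 call any.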

How the data were processed

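Leukocytes of the kidney of zebrafish larvae were measured in 3 MTZ and 3 DMSO libraries. The values deposited by the authors are estimated counts per gene, not normalised, of which between 8.31% and 9.90% of the non-zero ones in a library have decimals. HISAT2 and GRCz11 are named per the submitters' processing notes, and for the counting tool, its strand setting and the annotation version the entry is: not given in the sources used here. Without strand, reads of overlapping or antisense genes cannot be told apart.

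Counts were rounded to whole numbers. EdgeR 4.0.16 (R 4.3.3) filtered them (filterByExpr, minimum count 10), scaled them by TMM and tested MTZ over DMSO with the quasi-likelihood test and Benjamini-Hochberg adjustment over all 10283 genes tested, with a threshold of 0.05. Fold changes are log2 values with a standard error computed from the fold change and the F statistic. The common biological coefficient of variation, as edgeR estimates it, was 1.42. Counting floors cover counting error only, since several reads can stem from 1 molecule. The script was tested on simulated data.

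The members and the pathway and marker lists were chosen with earlier results of these data known. Per family, the text names the 5 higher and the 5 lower tested members of smallest p, the 4 of largest mean CPM, every pair of a and b copies with a tested copy and 23 members given by name, of which 22 were found, and per pathway list the higher and the lower gene of smallest p. Some genes under this rule are not reported here. Any other member or gene was named after its values were seen. Some account for all members or for the partners and targets of usp1 and usp18. Others are further genes of the pathway and marker lists, among them mcm4, mcm6, ubc, ubb, psmd14 and stambpa. Alternatives were DESeq2 1.42.0, limma 3.58.1 (voom), a robust dispersion, other scalings and filters, the replicate number as a block and leaving out each library. Sequences and transcript lengths were not used here, so levels are not compared between genes.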

Additional observations from a re-analysis of the deposited data

How the results depend on the processing

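No member passed the test under any of 15 alternatives, 6 of which leave out a library. Over all genes the count of 0 became 130 with DESeq2 and 52 when unfiltered. The count of members at an unadjusted p under 0.05, 1 of 66 as reported, was 4 with DESeq2, 2 with limma voom and 2 with a robust dispersion. Over all 10283 genes tested that count was 327 as reported, and 558, 565 and 342 under these settings. When unfiltered it was 3 of 78 members and 789 of 17911 genes. With single libraries left out, where between 67 and 69 members and between 11418 and 11716 genes were tested, it was between 1 and 3 members. Over all genes of those fits it was between 422 and 582. The 8 members whose groups do not overlap became between 12 and 16 with a library left out, where fewer libraries overlap less often. The share of all genes without overlap was not taken in those fits, so these counts are no result about the members. The median log2 fold change ran from -0.09 to 0.02 for ube2 and from -0.42 to 0.16 for usp. Over all genes tested in each setting it ran from -0.05 to 0.10.

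Of 42 tested members followed, 22 kept their sign under each of the 15 alternatives that tested them, usp1 among them, and 20 changed it under at least 1. Some members, such as ube2b, did not pass the filter of 10 CPM in 3 libraries and have no value there. With voom the log2 fold change turned to 0.43 for ube2s, 1.49 for usp12a, 0.062 for usp14, 2.005 for usp18, -0.28 for usp37 and -0.64 for usp48. Scaling by library totals turned ube2na to -0.0028. Leaving out single libraries gave values from -3.07 to 0.25 for ube2c, from -0.50 to 0.50 for ube2d1a, from -0.053 to 0.47 for ube2d1b, from -0.057 to 0.23 for ube2d2, from -0.41 to 0.030 for ube2g1a, from -0.075 to 0.21 for ube2g1b, from -0.73 to 0.12 for ube2l3a, from -0.19 to 0.38 for ube2na, from -0.043 to 0.20 for ube2nb, from -0.056 to 0.33 for ube2t, from -0.41 to 0.19 for usp10, from -2.19 to 7.61 for usp12a, from -5.30 to 0.30 for usp12b, from -0.44 to 0.65 for usp14, from -2.08 to 8.64 for usp18, from -3.65 to 2.65 for usp37, from -5.79 to 5.36 for usp48, from -0.56 to 0.53 for usp5 and from -0.16 to 0.77 for usp8. The cause was not tested.

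MTZ and DMSO libraries share replicate numbers. The deviations of same-numbered libraries correlated at -0.0153, 0.00706 and -0.0467, and those of differently numbered ones at between -0.0348 and 0.0504. With a common biological coefficient of variation of 1.42 these values cannot decide whether the numbers pair the libraries. With the number as a replicate block 0 genes and 0 members passed. The median log2 fold change was then 0.01 for ube2, 0.16 for usp and 0.05 over all genes tested. The block turned usp14 to 0.13, usp18 to 0.25 and usp48 to -0.50, and 1 member had an unadjusted p under 0.05, usp39 in place of usp1.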
